A study of Homo sapiens with 12 samples.

Results

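The 10 myosin heavy chain genes MYH1, MYH2, MYH3, MYH4, MYH8, MYH13, MYH15, MYH9, MYH10 and MYH14 were read out of the 58735 genes of the deposited count table by their symbols. RNA had been sequenced from SW872, a human liposarcoma cell line, stably transduced with TAZ-CAMTA1 (TC) or YAP-TFE3 (YT), the fusion proteins of epithelioid hemangioendothelioma. Each fusion line carried a non-targeting hairpin (shNT), a hairpin against YEATS2 (shYEATS2) or a hairpin against ZZZ3 (shZZZ3), and each of the 6 groups had 2 libraries. YEATS2 and ZZZ3 code for subunits of the ATAC complex, a histone acetyltransferase. Every group expressed a fusion protein, so none of the 12 libraries shows the cells without a fusion, and the lines are transduced populations of a single tumor line. The study calls the libraries of a group biological duplicates and describes separate transductions for its sequencing experiments in general, but the labels do not name the transduction behind each library. The p-values measure the spread between these libraries. MYH8, MYH2 and MYH13 had drawn attention to the family by their low counts in YT shYEATS2, so YT shYEATS2 is set against YT shNT below as a description and without a test.

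A class II myosin heavy chain carries the motor head that binds actin and splits ATP, and a long coiled tail that packs into filaments. The skeletal muscle forms lie side by side in a gene cluster and are switched during development: MYH3 is the embryonic chain, MYH8 the perinatal chain, MYH2, MYH1 and MYH4 the fast adult chains, and MYH13 the chain of extraocular muscle. MYH15 is a distant muscle-type chain encoded elsewhere. MYH9, MYH10 and MYH14 encode the non-muscle chains IIA, IIB and IIC, which drive cortical tension, migration and cell division in most cells. TAZ-CAMTA1 and YAP-TFE3 both keep the part of TAZ or YAP that binds TEAD transcription factors, which read the sequence CATTCC.

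In GRCh38 the 6 clustered genes lie on the minus strand of chromosome 17 in the order MYH13 (chr17:10300865-10373130, ENSG00000006788), MYH8 (chr17:10390322-10421950, ENSG00000133020), MYH4 (chr17:10443290-10469559, ENSG00000264424), MYH1 (chr17:10492307-10518542, ENSG00000109061), MYH2 (chr17:10521148-10549700, ENSG00000125414) and MYH3 (chr17:10628526-10657309, ENSG00000109063). MYH10 is on the same chromosome, outside the cluster (chr17:8474207-8631376, ENSG00000133026). MYH15 is on chromosome 3 (chr3:108380368-108529322, ENSG00000144821), MYH9 on chromosome 22 (chr22:36281280-36388010, ENSG00000100345) and MYH14 on chromosome 19 (chr19:50188186-50310542, ENSG00000105357).

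The 250 bases before the transcription start were taken from RefSeq (GRCh38.p14) for the 9 genes with an entry, so MYH3, which had none, was not searched. RefSeq starts can differ from the gene spans above, and the MYH15 window lies wholly inside its span. Of the windows 6 are shown because their genes differed most between the groups. They are written 5′ to 3′ on the minus strand, from chr17:10421951-10422200 for MYH8, chr17:10469560-10469809 for MYH4, chr17:10518543-10518792 for MYH1, chr17:10549659-10549908 for MYH2, chr17:10373007-10373256 for MYH13 and chr3:108510597-108510846 for MYH15. Capitals mark a MEF2 site, the TEAD sequence CATTCC on either strand, and the longest run of bases that MYH8, MYH4, MYH1 and MYH2 shared.
MYH8: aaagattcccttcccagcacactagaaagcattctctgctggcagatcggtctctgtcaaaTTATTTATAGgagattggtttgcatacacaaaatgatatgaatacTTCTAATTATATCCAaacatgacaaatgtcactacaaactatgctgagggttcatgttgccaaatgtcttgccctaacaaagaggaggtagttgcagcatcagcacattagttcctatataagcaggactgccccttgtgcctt
MYH4: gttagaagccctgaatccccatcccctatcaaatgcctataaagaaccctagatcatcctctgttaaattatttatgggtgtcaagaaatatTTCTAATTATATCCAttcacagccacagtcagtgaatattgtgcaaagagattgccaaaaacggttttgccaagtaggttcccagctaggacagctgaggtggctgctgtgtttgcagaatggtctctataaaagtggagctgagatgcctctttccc
MYH1: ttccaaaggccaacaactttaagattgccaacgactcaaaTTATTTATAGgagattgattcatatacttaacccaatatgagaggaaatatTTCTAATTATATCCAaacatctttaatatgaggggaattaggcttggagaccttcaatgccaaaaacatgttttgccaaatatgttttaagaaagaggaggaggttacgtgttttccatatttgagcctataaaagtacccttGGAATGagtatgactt
MYH2: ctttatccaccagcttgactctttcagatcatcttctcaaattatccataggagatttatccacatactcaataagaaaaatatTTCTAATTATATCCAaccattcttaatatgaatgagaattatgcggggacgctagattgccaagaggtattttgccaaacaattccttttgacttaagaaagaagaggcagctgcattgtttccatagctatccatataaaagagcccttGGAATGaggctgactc
MYH13: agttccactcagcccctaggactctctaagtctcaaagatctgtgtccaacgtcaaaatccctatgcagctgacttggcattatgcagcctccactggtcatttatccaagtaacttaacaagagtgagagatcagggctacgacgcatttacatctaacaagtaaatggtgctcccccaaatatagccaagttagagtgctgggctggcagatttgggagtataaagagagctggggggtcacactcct
MYH15: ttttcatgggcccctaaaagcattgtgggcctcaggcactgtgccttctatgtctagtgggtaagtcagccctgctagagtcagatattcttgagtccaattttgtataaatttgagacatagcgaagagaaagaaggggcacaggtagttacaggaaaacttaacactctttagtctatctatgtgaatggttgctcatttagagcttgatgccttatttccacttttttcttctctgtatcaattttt

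The shared run, TTCTAATTATATCCA, was looked for after the promoters had been seen. It is 15 bases long and begins 144 bases before the start of MYH8, 158 before MYH4, 159 before MYH1 and 166 before MYH2. On either strand it was found in 4 of 35116 promoters of the same length, which are these 4 genes. MYH1 and MYH2 also share GGAATG, the reverse complement of CATTCC, at bases -16 to -11, and MYH8 and MYH1 share the MEF2 match TTATTTATAG, at bases -189 to -180 and -210 to -201. CATTCC on either strand was in 4 of the 9 member promoters (MYH1, MYH2, MYH9 and MYH10) and in 11.9% of all promoters. A MEF2 site was in 2 of 9 and in 2.80% of all, and an E-box (CANNTG) in 6 of 9 and in 61.8% of all. In MYH10 the match to CATTCC and an E-box overlap. The TFE3 sequence CACGTG (6.34% of all promoters), the AP-1 sequence TGACTCA (4.20%) and the CArG box (1.16%) had 0 matches in the 9. The matches describe the letters of these windows and not binding.

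Total counts were between 17451893 and 29294805 per library. YEATS2 was at 45.4 and 35.1 CPM (counts scaled to the normalized library size) in TC shYEATS2 against 112 and 123 in TC shNT, and at 33.9 and 38.5 in YT shYEATS2 against 114 and 117 in YT shNT. ZZZ3 was at 21.9 and 22.7 CPM in TC shZZZ3 against 25.6 and 60.4 in TC shNT, and this difference was not called by edgeR (adjusted p = 0.450). It was at 12.6 and 29.6 in YT shZZZ3 against 71.2 and 49.1 in YT shNT (log2 fold change -1.51, adjusted p = 0.0453 in edgeR). YT shYEATS2 had 31.4 and 30.6 CPM of ZZZ3. Of 5 mesenchymal markers, 0 were at 0 counts in any group, with VIM and FN1 among them, and the adipocyte list was split, with FABP4 and ADIPOQ at or near 0, CEBPA and PLIN1 at most 3.75 CPM, PPARG between 36.7 and 109 CPM and LPL between 73.2 and 286 CPM.

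In YT shNT the cells held RNA of 5 of the 6 clustered muscle genes at levels that no other group reached. MYH8 had 2351 and 2044 counts (124 and 117 CPM, mean 121 ± 4.64, SD, n = 2). MYH2 had 803 and 702 counts (41.4 ± 1.43 CPM) and MYH13 had 620 and 531 (31.6 ± 1.55 CPM). The perinatal chain was thus the leading one, with the fast chain MYH2 and the extraocular chain MYH13 behind it. MYH1 had 195 and 172 counts (10.1 ± 0.285 CPM) and MYH4, a fast chain gene, had 68 and 77 (4.01 ± 0.592 CPM). MYH15 had 137 and 129 counts (7.32 ± 0.131 CPM). The embryonic chain MYH3 stood apart, with 16 and 10 counts (0.709 ± 0.191 CPM). The 6 clustered genes summed to 214 and 203 CPM.

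Per kilobase of the canonical transcript, the level in YT shNT ran from MYH9 (123 CPM per kb) over MYH10 (24.9), MYH8 (19.99), MYH14 (12.01), MYH2 (6.84), MYH13 (5.27), MYH1 (1.67), MYH15 (1.04) and MYH4 (0.666) to MYH3 (0.118). No neighbours in this order overlapped between their libraries. MYH8 RNA, at 20.5 and 19.4 CPM per kb, was thus close below the non-muscle chain MYH10, at 25.2 and 24.5. In TC shNT the order was MYH9 (87.1 CPM per kb), MYH10 (38.4) and MYH14 (8.01), with every muscle-type gene at or below 0.112. Among those, the libraries of MYH3 overlapped with those of MYH8, and the libraries of MYH2, MYH15 and MYH13 overlapped in turn.

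**Figure D1:**
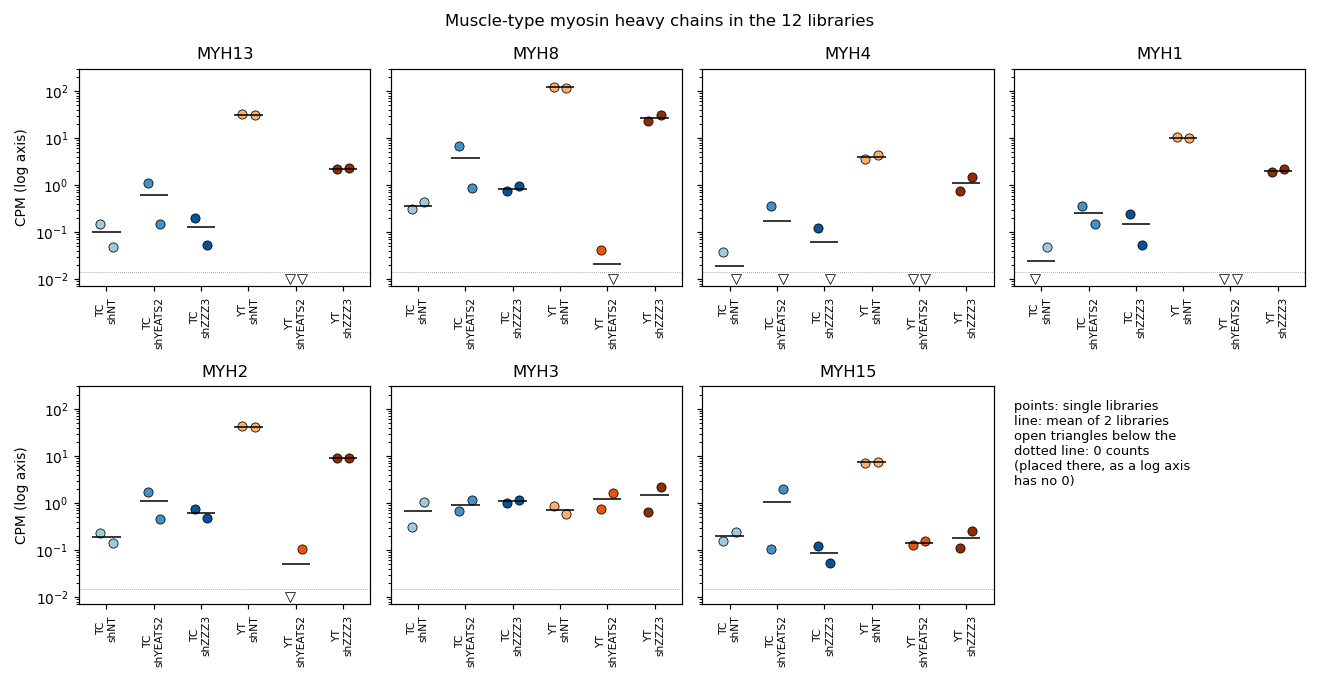
CPM of the 7 muscle-type myosin heavy chains in the 12 libraries on a log axis, with points for single libraries, lines for the mean of 2 and open triangles for 0 counts. For MYH13, MYH8, MYH4, MYH1, MYH2 and MYH15 the YT shNT libraries are the highest of the 12, MYH13, MYH4 and MYH1 have triangles in both YT shYEATS2 libraries, and MYH3 lies between 0.305 and 2.24 CPM throughout.

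YT shNT was compared with TC shNT to ask how the fusion proteins differ. Of the 10 genes 6 were higher in YT shNT at an adjusted p under 0.05 in edgeR and 0 were lower, where 5.58% of all 18415 genes tested were higher, 3.65% lower and 9.23% either. In TC shNT MYH8 had 8 and 9 counts (0.367 ± 0.0883 CPM), MYH2 had 6 and 3, MYH13 4 and 1, MYH4 1 and 0, MYH1 0 and 1, and MYH15 4 and 5. The libraries of the 2 groups did not overlap for any of these 6. MYH8 rose by 8.06 ± 0.77 on the log2 scale (SE, adjusted p = 0.000137 in edgeR), MYH13 by 7.35 ± 0.65 (adjusted p = 0.000135) and MYH2 by 7.22 ± 0.56 (adjusted p = 3.61e-05). Of the others, MYH1 rose by 6.52 ± 0.51 (adjusted p = 7.10e-05 in edgeR), MYH4 by 5.22 ± 0.77 (adjusted p = 0.00234) and MYH15 by 4.72 ± 0.80 (adjusted p = 0.00402). As ratios of summed counts, MYH8 was 335-fold higher (95% counting interval 209 to 576), MYH2 217-fold (114 to 475) and MYH15 38.4-fold (19.9 to 84.8). MYH1 and MYH4 had a single count each in TC shNT, which gives ratios of 476 (84.9 to 18861) and 188 (33.2 to 7482). MYH3 had 26 counts in YT shNT and 30 in TC shNT, a ratio of 1.12 (0.639 to 1.97). These intervals cover counting error only. The 6 calls were kept without any 1 of the 12 libraries. The YT shNT libraries also entered the comparison through which the genes were noticed.

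**Figure D2:**
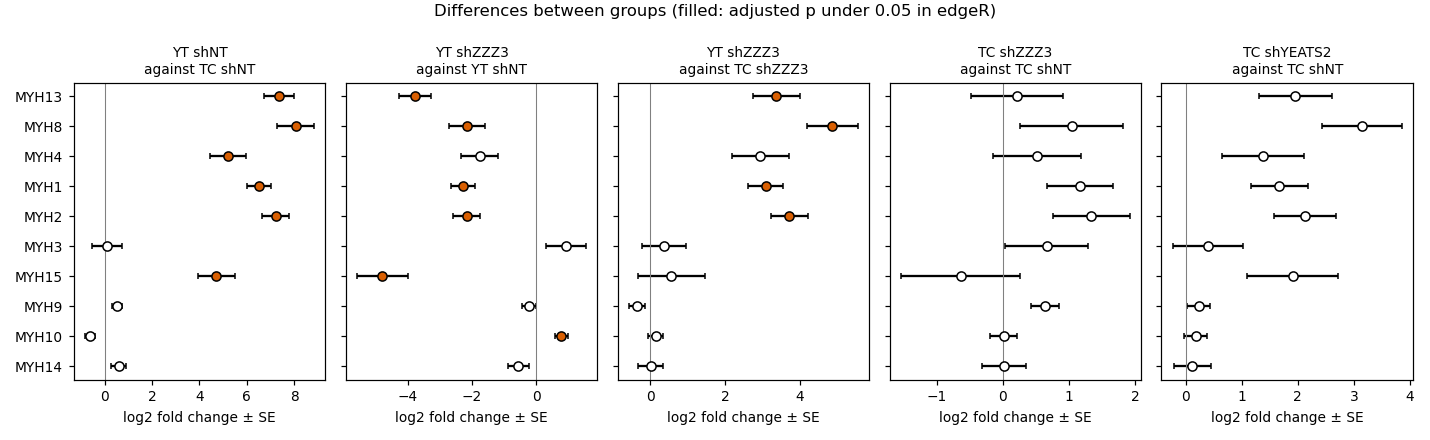
Log2 fold changes with their SE for the 10 genes in 5 comparisons from the same edgeR fit, filled where the adjusted p was under 0.05; each panel has its own axis. The filled points in the first panel are the 6 muscle-type genes from MYH4 (5.22) to MYH8 (8.06) and MYH15 (4.72), in the second panel 5 of these lie below 0 and MYH10 lies above it, and the 2 right-hand panels hold no filled point.

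With the YEATS2 hairpin in the YT line, the clustered genes other than MYH3 were nearly undetected. MYH13, MYH4 and MYH1 had 0 counts in both YT shYEATS2 libraries, MYH8 had 1 and 0, and MYH2 had 0 and 2. A count of 0 in these libraries allows up to 0.125 and 0.155 CPM (3 counts). The 5 genes together had 3 counts in YT shYEATS2 against 7563 in YT shNT. Set against 3 counts over the group, the ratio of YT shNT to YT shYEATS2 was 458 for MYH13, 146 for MYH1 and 57.7 for MYH4. With the observed 0 counts, the lower limits of the counting intervals were 372 for MYH13, 118 for MYH1 and 46.4 for MYH4. MYH8 had a ratio of 5250 (942 to 207429) and MYH2 of 899 (248 to 7430) between YT shNT and YT shYEATS2. MYH15 had 3 and 3 counts, 53.0-fold lower (24.01 to 146). MYH3 had 18 and 32 counts, inside the range of the other groups, and MYH14 was at 33.7 and 37.3 CPM against 84.1 and 82.0. Of all tested genes 11.1% were called lower, 9.61% higher and 20.7% either between these groups, which is given as background only, since the genes were noticed here.

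With the ZZZ3 hairpin the same line kept part of its clustered myosin RNA. Of the 10 genes 5 fell and 1 rose in YT shZZZ3 against YT shNT at an adjusted p under 0.05 in edgeR, where 5.62% of all tested genes were lower, 4.40% higher and 10% (1846 genes) either. MYH8 had 634 and 724 counts (26.8 ± 5.33 CPM) and fell by 2.17 ± 0.55 on the log2 scale (adjusted p = 0.0302 in edgeR). MYH2 had 254 and 213 counts (9.12 ± 0.166 CPM) and fell by 2.17 ± 0.41 (adjusted p = 0.00730 in edgeR). MYH1 had 51 and 51 counts (2.01 ± 0.213 CPM) and fell by 2.28 ± 0.37 (adjusted p = 0.00431 in edgeR). These 3 genes thus fell by like amounts, 4.55-fold (4.28 to 4.84), 4.54-fold (4.09 to 5.04) and 5.06-fold (4.06 to 6.37) in summed counts. MYH13 had 60 and 54 counts (2.23 ± 0.0710 CPM) and fell by 3.77 ± 0.50 (adjusted p = 0.00150 in edgeR), 14.2-fold (11.7 to 17.4). MYH15 had 3 and 6 counts and fell by 4.80 ± 0.79 (adjusted p = 0.00361 in edgeR), 41.6-fold (21.6 to 92.0). The counts of MYH15 in YT shZZZ3 therefore lay beside the 3 and 3 of YT shYEATS2, while those of MYH8, MYH2, MYH13, MYH1 and MYH4 lay far above theirs. MYH4 had 21 and 35 counts (1.12 ± 0.506 CPM) with a log2 fold change of -1.77 ± 0.59 that was not called (adjusted p = 0.0912 in edgeR). MYH3 had 18 and 53 counts. The calls of MYH13, MYH1 and MYH15 were kept without any 1 of the 12 libraries. MYH2 was no longer called without YT shNT replicate 1 or 2 (adjusted p = 0.0625 and 0.0572 in edgeR), nor was MYH8 without either library of TC shZZZ3, YT shNT, YT shYEATS2 or YT shZZZ3 (adjusted p 0.0517 to 0.150). This comparison shares its YT shNT libraries with the one through which the genes were noticed.

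The share of each chain in the counts of the 6 clustered genes also differed. MYH13 made up 15.3% (95% exact Clopper-Pearson interval 14.2 to 16.4) and 15.0% (13.9 to 16.2) in the YT shNT libraries but 5.78% (4.44 to 7.38) and 4.78% (3.61 to 6.19) in the YT shZZZ3 libraries. MYH8 made up 58.0% and 57.8% without and 61.1% and 64.1% with the ZZZ3 hairpin. For MYH2 the shares were 19.8% and 19.9% without and 24.5% and 18.9% with it. MYH3, with few counts, made up 0.395% and 0.283% without and 1.73% and 4.69% with it. The libraries of the 2 groups thus stood apart for MYH13, for MYH3 and, by less, for MYH8, and overlapped for MYH2. A lower share of any chain raises those of the others. The shares were not tested.

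**Figure D3:**
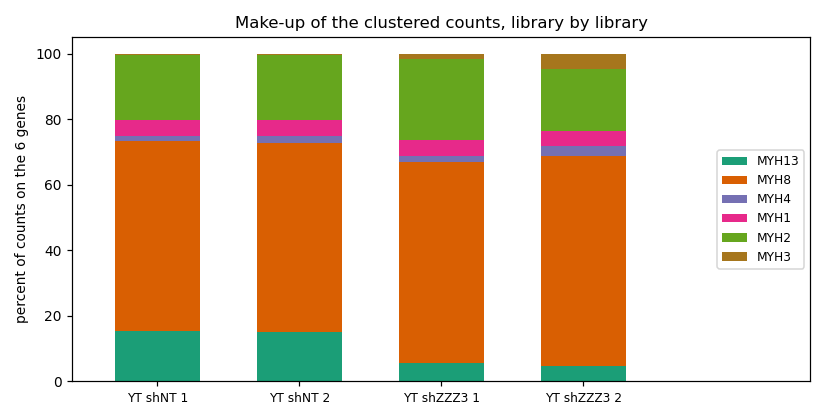
Percent of the counts on the 6 clustered genes that fell on each, in the 2 YT shNT and the 2 YT shZZZ3 libraries, as stacked bars from 0 to 100. The MYH13 segment falls from 15.3% and 15.0% (YT shNT) to 5.78% and 4.78% (YT shZZZ3), and the MYH8 segment is the largest in each bar.

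YT shZZZ3 against TC shZZZ3 compares the fusion proteins in libraries outside the comparison through which the genes were noticed, although earlier results of all groups were known. The spread was still estimated over all 12 libraries, and YT shZZZ3 carries the same fusion as the groups of that comparison. It is therefore not an independent check. Of the 10 genes 4 were higher in YT shZZZ3 and 0 lower at an adjusted p under 0.05 in edgeR, where 1.52% of all tested genes were higher, 1.10% lower and 2.62% either. In TC shZZZ3 MYH8 had 18 and 18 counts, MYH2 18 and 9, MYH13 5 and 1, and MYH1 6 and 1. MYH8 was higher by 4.86 ± 0.68 on the log2 scale (adjusted p = 0.00327 in edgeR), MYH2 by 3.71 ± 0.49 (adjusted p = 0.00235), MYH13 by 3.36 ± 0.62 (adjusted p = 0.0182) and MYH1 by 3.08 ± 0.47 (adjusted p = 0.00628). MYH4, with 3 and 0 counts in TC shZZZ3, had a log2 fold change of 2.94 ± 0.75 that was not called (adjusted p = 0.0758 in edgeR). MYH15 had 3 and 1 counts in TC shZZZ3, close to its 3 and 6 in YT shZZZ3. As summed counts of the 5 clustered genes without MYH3, YT shZZZ3 was 22.5-fold above TC shZZZ3 (17.97 to 28.5), where YT shNT was 297-fold above TC shNT (212 to 432). Without TC shZZZ3 replicate 2 the 4 genes were no longer called (adjusted p 0.0526 to 0.196 in edgeR), and without TC shZZZ3 replicate 1 MYH8 (0.0750) and MYH13 (0.131) were not.

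In the TC line neither hairpin moved a member past the threshold. In TC shZZZ3 against TC shNT 0 of the 10 genes were called by edgeR, where 1.5% of all tested genes (277) were, 0.918% higher and 0.586% lower, and 1991 genes had an unadjusted p under 0.05. DESeq2 also called 0 of the 10. The 6 clustered genes had 75 and 51 counts in TC shZZZ3 against 27 and 36 in TC shNT. The members with an unadjusted p under 0.05 were MYH9, MYH1 and MYH2, all with higher levels in TC shZZZ3. In TC shYEATS2 against TC shNT 0 were called by edgeR, where 0.0434% of all tested genes (8) were, 0.0326% higher and 0.0109% lower, and 926 genes had an unadjusted p under 0.05. MYH8, MYH2, MYH1, MYH13 and MYH15 were among the latter.

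The TC shYEATS2 libraries differed from each other in these genes. In replicate 1 the clustered genes had 310 counts, with 191 on MYH8, 49 on MYH2, 31 on MYH13 and 10 each on MYH4 and MYH1. In replicate 2 they had 55, with 17 on MYH8, 9 on MYH2, 3 on MYH13, 0 on MYH4 and 3 on MYH1. The cluster thus stood at 5.24% of its mean YT shNT level in replicate 1 and at 1.32% in replicate 2, against 0.494% and 0.824% in TC shNT. MYH15 went the other way, with 3 counts in replicate 1 and 39 in replicate 2. A check chosen after these values were seen used 5 genes outside the family that were high in YT shNT and low in TC shNT and TC shZZZ3 (SILC1, ANK2, MCTP1, DMD and KLHDC7B). Their median level was 0.142% of YT shNT in TC shYEATS2 replicate 1 and 1.21% in replicate 2. The endothelial markers PECAM1, CDH5 and VWF summed to 34.0 and 111 CPM in these libraries, and their part in the MYH15 counts was not tested. MYH8 had a log2 fold change of 3.14 ± 0.71 in TC shYEATS2 (adjusted p = 0.213 in edgeR), which was 3.90 (adjusted p = 0.00147) without replicate 2 and 1.04 (adjusted p = 0.655) without replicate 1. DESeq2 called MYH8 (3.39, adjusted p = 0.000209) and MYH2 (2.57, adjusted p = 0.0136), with 119 genes called in all. MYH15 had 1.91 ± 0.81 (adjusted p = 0.902 in edgeR), which was 2.84 (adjusted p = 0.0214) without replicate 1 and -0.55 without replicate 2.

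The change with the ZZZ3 hairpin was then compared between the lines, as the change in YT minus that in TC. MYH2 differed by -3.51 ± 0.75 on the log2 scale (adjusted p = 0.0229 in edgeR) and MYH1 by -3.44 ± 0.81 (adjusted p = 0.0407), so 2 of the 10 genes were called, both with the lower change in YT, where 2.86% of all tested genes were called in that direction, 1.46% in the other and 4.31% in either. MYH2 went from 9 to 27 summed counts with the hairpin in TC and from 1505 to 467 in YT. MYH8 had -3.20 ± 0.997 (adjusted p = 0.108), MYH13 -3.99 ± 1.30 (adjusted p = 0.131) and MYH15 -4.16 ± 1.96 (adjusted p = 0.313), which edgeR did not call. The difference rests in part on the high YT shNT values, which also entered the comparison through which the genes were noticed, MYH2 among the first of them. The other part is a rise in TC from few counts, by 1.16 ± 0.50 for MYH1 and 1.34 ± 0.58 for MYH2, which edgeR did not call. With 1 count of MYH1 and 9 of MYH2 in TC shNT, a fall in TC like that in YT could hardly have been seen. Without TC shZZZ3 replicate 1 or 2 or YT shNT replicate 1 or 2 neither difference was called. That of MYH1 was not called without 9 of the 12 libraries (adjusted p 0.0504 to 0.558 in edgeR). ZZZ3 itself changed by -0.94 ± 0.42 in TC shZZZ3 (adjusted p = 0.450 in edgeR) and by -1.51 ± 0.43 in YT shZZZ3 (adjusted p = 0.0453). The part of unequal knock-down in these results was not tested.

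The non-muscle chains were present in all 12 libraries, and MYH10 alone among them was called, in 1 of the 6 comparisons tested. MYH9, the chain of non-muscle myosin IIA, had a mean between 649 CPM (TC shNT) and 1007 CPM (TC shZZZ3) in the 6 groups and was called in none of them. Its largest log2 fold change between groups was 0.63 ± 0.21 in TC shZZZ3 against TC shNT (adjusted p = 0.224 in edgeR), and the change with the ZZZ3 hairpin in YT minus that in TC was -0.86 ± 0.29 (adjusted p = 0.145). MYH10, the chain of myosin IIB, was at 195 and 189 CPM in YT shNT, below the 264 to 397 CPM of the other 10 libraries. It rose by 0.78 ± 0.20 on the log2 scale in YT shZZZ3, at 319 and 342 CPM (adjusted p = 0.0314 in edgeR), opposite to the clustered genes, and this call was lost without either library of TC shZZZ3, YT shNT, YT shYEATS2 or YT shZZZ3 (adjusted p 0.0517 to 0.184). Between YT shNT and TC shNT (265 and 328 CPM) its log2 fold change was -0.63 ± 0.20 and was not called by edgeR (adjusted p = 0.0783). In YT shYEATS2 MYH10 was at 284 and 264 CPM. MYH14, the chain of myosin IIC, was at 84.1 and 82.0 CPM in YT shNT and at 69.5 and 43.2 in YT shZZZ3, and its libraries in TC shNT, at 68.7 and 42.1, were as far apart. It was called in 0 of the 6 comparisons tested.

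**Figure D4:**
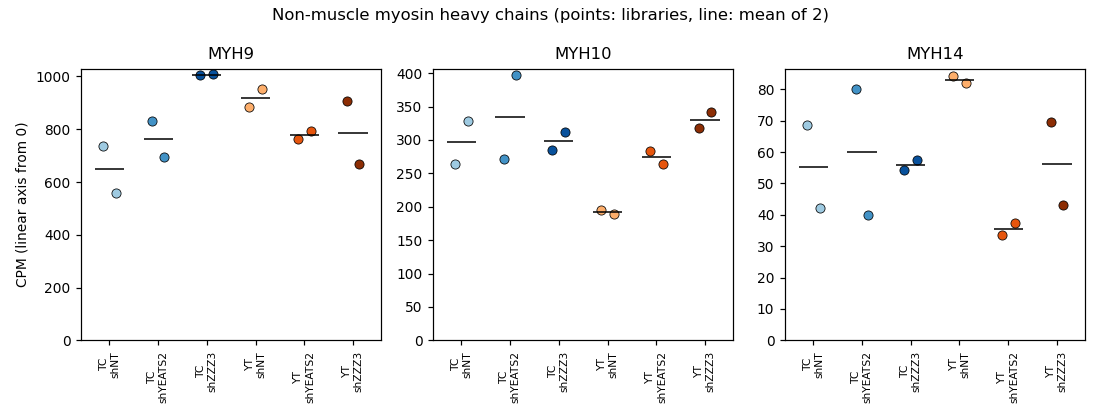
CPM of MYH9, MYH10 and MYH14 in the 12 libraries on linear axes from 0, with points for libraries and lines for the mean of 2. MYH10 is lowest in the 2 YT shNT libraries (195 and 189 CPM) and MYH14 lowest in the 2 YT shYEATS2 libraries (33.7 and 37.3 CPM).

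Across the 12 libraries the log2 CPM of MYH13, MYH8, MYH4, MYH1 and MYH2 followed each other, with Pearson's r between 0.954 and 0.984 for their pairs, a description over libraries that fall into the same 6 groups. MYH3 had r between -0.182 and -0.0264 with these 5, and MYH15 between 0.612 and 0.734. Of the genes outside the family, GALP (0.960), PPFIBP2 (0.955), ZNF114 (0.954), SLC6A12 (0.946) and IL33 (0.946) had the highest r with the summed cluster over the 12 libraries, followed by SILC1, LINC01602, UPP1, RRAGD and IGSF5 (0.944 to 0.938). MYH15 had its highest r with KCNE3 (0.967), LINC00662 (0.964), HSPA9 (0.95), PCCA-DT (0.946) and the lncRNA ENSG00000272941 (0.944), so none of its 5 was among the 10 of the cluster.

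The antisense lncRNA MYHAS (ENSG00000272975, chr17:10383144-10623886, plus strand) runs over MYH8, MYH4, MYH1 and MYH2 and ends before MYH3. It had 53 and 55 counts in YT shNT and 0 and 1 in TC shNT. With the hairpins the YT line had 0 and 0 (shYEATS2) or 1 and 3 (shZZZ3). The summed counts were 38.0-fold lower in YT shZZZ3 than in YT shNT (14.4 to 142). With 8 counts over the 10 libraries outside YT shNT, MYHAS passed the filter on low counts through YT shNT alone, so no test is given for it. MYHAS was at 1 and 1 counts in TC shZZZ3 and 1 and 0 in TC shYEATS2, where replicate 1 had 191 counts of MYH8. Its exons share 30 bases with those of MYH8 and 0 with those of the other 5 genes, and how strand was used in counting is not given in the sources used here. Of 9 neighbours of the cluster 6 were tested, MYHAS among them. GAS7 was at 77.2 CPM in YT shNT against 35.1 in TC shNT (1.13 ± 0.26, adjusted p = 0.0205 in edgeR) and differed between the lines in its change with the ZZZ3 hairpin (-1.72 ± 0.37, adjusted p = 0.0232). TMEM220 was lower in YT shZZZ3 than in YT shNT (-0.94 ± 0.25, adjusted p = 0.0351 in edgeR) and than in TC shZZZ3 (-1.09 ± 0.25, adjusted p = 0.0389). SCO1, ADPRM and GLP2R were called in 0 of the 6 comparisons tested, and RCVRN, PIRT and SHISA6 were under the filter of a mean of 5 counts.

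**Figure D5:**
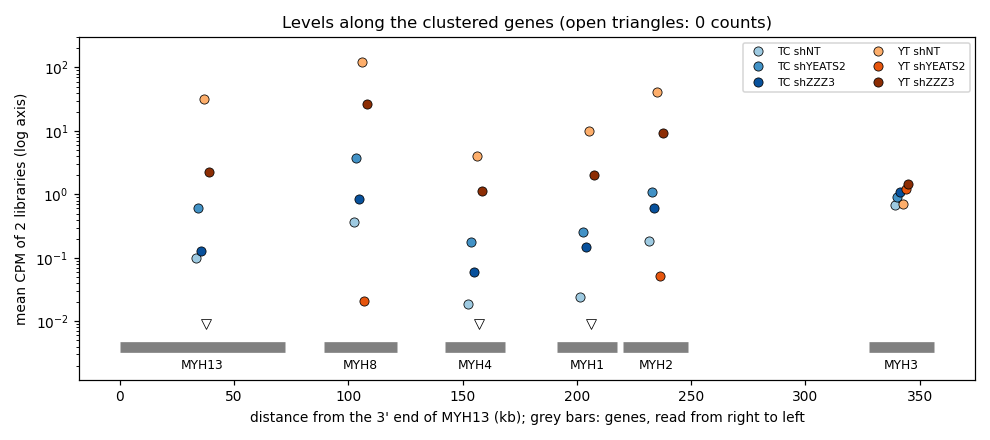
Mean CPM of 2 libraries on a log axis for the 6 clustered genes, placed by their distance in kb from the 3′ end of MYH13 and transcribed from right to left, with open triangles for 0 counts. In YT shNT the 5 genes left of MYH3 lie between 4.01 and 121 CPM, in YT shYEATS2 they lie at or below 0.0516 CPM, and MYH3, at the right, lies between 0.678 and 1.45 CPM in all 6 groups.

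The clustered genes are near copies of each other, so their separation depends on how the reads were assigned. MYH1 and MYH2 share 91.2% of their aligned coding bases, MYH4 and MYH1 89.7%, and MYH8 and MYH1 88.1%. MYH13 shares between 77.9% and 79.6% with the other clustered genes, MYH3 between 77.9% and 80.7%, and MYH15 between 67.6% and 68.2%. Windows of 75 bases, the read length, were taken from all annotated transcripts of each gene. Of these, 11.7% of MYH1, 9.99% of MYH2, 6.50% of MYH4, 5.88% of MYH13, 3.84% of MYH8 and 1.77% of MYH3 occur exactly in another myosin heavy chain. MYH15, MYH10 and MYH14 have 0 such windows and MYH9 has 0.120%. The values of MYH1, MYH2 and MYH4 are therefore the least certain. The sum of the cluster does not depend on how shared reads were split among its members, but would lack any that were discarded.

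The sarcomere genes did not follow the clustered heavy chains as a group. Of 33 sarcomere genes 19 had enough counts to be tested. Against TC shNT, YT shNT had 2 higher and 1 lower, where 5.58% of all tested genes were higher and 3.65% lower. The median log2 fold change of the 19 was -0.23 where that of all genes was -0.01. ACTN2, the sarcomeric alpha-actinin, was at 3.85 and 3.05 CPM in YT shNT against 0.496 and 0.430 in TC shNT (2.68 ± 0.49, adjusted p = 0.00651 in edgeR). MYBPC2, the fast myosin-binding protein C, was at 2.32 and 1.72 CPM against 0.267 and 0.0955. It is in these counts of calls but passed the filter on low counts only through YT shNT (49 counts over the other 10 libraries), so no test is given for it. TNNT1, the slow troponin T, was lower with YAP-TFE3 (-1.21 ± 0.29, adjusted p = 0.0238 in edgeR). Of all tested genes 5.62% were lower and 4.40% higher in YT shZZZ3 against YT shNT, with a median of 0.01. Of the sarcomere genes, with a median of 0.10, 3 fell and 1 rose there. These were MYBPC2, again without a test of its own, ACTN2 (-2.47 ± 0.48, adjusted p = 0.00832 in edgeR) and DES, which encodes desmin (-2.12 ± 0.52, adjusted p = 0.0252), and NEB, which encodes nebulin and rose (1.96 ± 0.54, adjusted p = 0.0408). ACTN2 also differed between the lines in its change with the ZZZ3 hairpin (-4.40 ± 0.69, adjusted p = 0.00582 in edgeR). In YT shZZZ3 against TC shZZZ3 TTN was higher (1.74 ± 0.40, adjusted p = 0.0447 in edgeR), and neither hairpin moved a sarcomere gene past the threshold in TC. As a description, 4 of the 19 were called lower in YT shYEATS2 than in YT shNT, MYBPC2 among them, and 1 higher. The shares of all genes were 11.1% lower and 9.61% higher, and the medians were -0.002 for the 19 and -0.01 for all. ACTN2 had 5 counts in YT shYEATS2 against 126 in YT shNT and DES 11 against 87, while TNNT1 had 3011 against 1309.

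The regulators that switch on the muscle program were nearly absent where MYH8 was high. MYF5 and MYF6 were at 0 counts in all 12 libraries, MYOD1 was at 0.211 and 0 CPM and MYOG at 0 and 0 in YT shNT, and the skeletal actin ACTA1 was at 0.106 and 0.0575. Of the other skeletal muscle markers, CKM was between 1.33 and 4.96 CPM, DES between 0.208 and 2.85 and TTN between 0.176 and 1.14 over the 12 libraries. The 6 markers MYOD1, MYOG, DES, ACTA1, CKM and TTN summed to 5.07 and 5.46 CPM in YT shNT and to 7.66 and 4.58 in TC shNT. With the hairpins the YT line had 1.91 and 2.79 CPM (shYEATS2) or 6.22 and 3.59 (shZZZ3). Of 19 myogenic factors 13 were tested, and 0 differed between YT shNT and TC shNT, where 9.23% of all tested genes did. PAX3 was between 11.02 and 17.2 CPM throughout.

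Among the partners of the heavy chains, 7 of 13 light chain genes were tested. Of these 0 differed between YT shNT and TC shNT, where 9.23% of all tested genes did. The skeletal light chain gene MYL1 was at 0 counts in all libraries. MYL6, the light chain shared by smooth and non-muscle myosin, rose in YT shZZZ3 (1.15 ± 0.30, adjusted p = 0.0315 in edgeR), as MYH10 did. Of 12 regulators of non-muscle myosin, CIT, the citron kinase, was lower in YT shNT (-1.11 ± 0.18, adjusted p = 0.00269 in edgeR) and rose in YT shZZZ3 (1.15 ± 0.18, adjusted p = 0.00225), and the unconventional myosin MYO18A rose there too (0.94 ± 0.22, adjusted p = 0.0201). Of 9 folding and assembly genes 6 were tested, and 0 differed between YT shNT and TC shNT, while TRIM55, a sarcomeric ubiquitin ligase, had 30 counts in YT shZZZ3 against 3 in YT shNT but passed the filter only through YT shZZZ3. The muscle myosin chaperone gene SMYD1 was at 0 counts throughout. Of 7 smooth muscle genes LMOD1, which encodes leiomodin, was higher in YT shNT than TC shNT (4.54 ± 0.32, adjusted p = 2.82e-05 in edgeR) and fell in YT shZZZ3 (-1.15 ± 0.27, adjusted p = 0.0203), while SMTN, which encodes smoothelin, rose in YT shZZZ3 (1.02 ± 0.27, adjusted p = 0.0361). LMOD1 was also higher in YT shZZZ3 than in TC shZZZ3 (3.81 ± 0.32, adjusted p = 0.000296 in edgeR). It had 61 counts in YT shYEATS2 against 849 in YT shNT. Between these 2 groups 4 of the 7 smooth muscle genes were called lower and 0 higher, with a median log2 fold change of -1.06. Of all tested genes 11.1% were lower and 9.61% higher there, and a link to the clustered genes was not tested. The remaining heavy chains were low: MYH7B was between 0.251 and 1.37 CPM and called in 0 of the 6 comparisons, and MYH6, MYH7 and MYH11 were under the filter, at or below 0.430 CPM.

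Markers of other cell types moved in some of these comparisons, and their part in the results was not tested. In YT shZZZ3, where the clustered genes fell, the 3 endothelial markers PECAM1, CDH5 and VWF summed to 112 and 102 CPM against 25.6 and 27.2 in YT shNT, and 2 of the 3 rose. The 5 mesenchymal markers summed to 4833 and 5067 CPM against 9077 and 11265, with 3 higher (VIM, THY1 and COL1A1) and 1 lower (FN1). Of all tested genes 4.40% were higher and 5.62% lower in YT shZZZ3 than in YT shNT. Between YT shNT and TC shNT 3 of the 5 mesenchymal markers (VIM, COL1A1 and COL1A2) were lower in YT shNT and 0 of the 3 endothelial markers differed. Of all tested genes 3.65% were lower there and 9.23% differed in either direction. Between YT shZZZ3 and TC shZZZ3 PECAM1 and VWF were higher, COL1A2 and the epithelial marker CDH1 lower. Of all tested genes 1.52% were higher and 1.10% lower there. The 6 adipocyte markers summed to 133 and 171 CPM in YT shZZZ3 and to 229 and 235 in YT shNT. The 4 epithelial markers summed to between 285 and 911 CPM over the 12 libraries, the 4 smooth muscle markers to between 5.70 and 18.1, and the 2 haematopoietic markers to at most 0.464. In bulk RNA, fewer cells that make a transcript and less of it per cell cannot be told apart.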

How the data were processed

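Per the labels and the study's methods, the authors prepared libraries from poly(A) RNA with a stranded kit, sequenced them as 75-base paired ends and ran them through bcbio-nextgen with hg38 (bcl2fastq is also named in the submitters' processing notes). The deposited values are raw counts, 1 per gene and library. Whether HISAT2 alignments or Salmon with tximport gave them, and how reads shared by paralogs were treated, is not given in the sources used here. The combined and per-library tables differed in 0 cells.

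Samples were grouped by their titles. The 18415 genes whose counts averaged 5 or more were fitted in edgeR (version 4.0.16, R 4.3.3; TMM normalization, robust quasi-likelihood F test, 6 groups, prior count of 2), and two-sided p-values were adjusted by Benjamini-Hochberg over all of them. A gene was called at an adjusted p under 0.05. All 10 members passed this filter. Of 7 contrasts 6 were tested on the members. SE is the log2 fold change divided by the square root of F. CPM are TMM-normalised. Levels per kilobase used the Ensembl canonical transcript of GENCODE 44 in place of the exon union. Ratios of summed counts have 95% exact conditional binomial intervals, and groups at 0 were set at 3 counts. Intervals cover counting error only. Alternatives were DESeq2 (version 1.42.0), other scalings and filters, a replicate block, and leaving out each library. The procedure was tested on simulated data.

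The members and gene lists were chosen with earlier results of these data known. Named genes are the members, up to 4 called genes per list with the largest change, the cluster's neighbours, the other heavy chains, and the genes with the highest r. The result of 1 listed gene is not reported here.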

Additional observations from a re-analysis of the deposited data

Results flagged for a closer look

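Of the 10 genes, 2 differed between the fusion lines in their change with the ZZZ3 hairpin, by a test of the difference itself in edgeR. The change of MYH1 in YT minus that in TC was -3.44 on the log2 scale (adjusted p = 0.0407 in edgeR), with 1 and 7 summed counts in TC shNT and TC shZZZ3 and 367 and 102 in YT shNT and YT shZZZ3. The change of MYH2 differed by -3.51 (adjusted p = 0.0229 in edgeR), with 9 and 27 summed counts in TC and 1505 and 467 in YT. Both differences rest in part on the YT shNT values, which also entered the comparison through which the family, with MYH2 among its first genes, was noticed. The other part is a rise in TC from few counts, by 1.16 for MYH1 and 1.34 for MYH2, which edgeR did not call. The libraries of both TC groups were at or below 0.730 CPM for these genes, so a fall in TC like that in YT could hardly have been seen. ZZZ3 itself was not called lower in TC shZZZ3 (adjusted p = 0.450 in edgeR), and the part of unequal knock-down was not tested. Groups of 2 libraries are too small for a check of single libraries that stand apart by their gap to the others.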

How the results depend on the processing

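Under 20 other settings, 12 of which left out a library, the 18 called values of the members had 353 alternatives: 313 kept the call, 40 lost it and 0 changed sign. Of 550 alternatives of the 28 uncalled values, 34 were called and 3 had the other sign. Values smaller than their SE were given no direction and were not followed. No other scaling moved the median log2 fold change over all genes by more than 0.0465.

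In TC shYEATS2 against TC shNT, where 0 members were called, DESeq2 called 2 (MYH8 and MYH2) and the fit without a filter on low counts 4 (these, MYH13 and MYH15); leaving out a library gave 0 to 2. With a mean of at least 50 counts, 3 members were called in YT shNT against TC shNT, since MYH4, MYH1 and MYH15 were no longer tested. For the change with the ZZZ3 hairpin in YT minus TC, where 2 were called, scaling by library totals only left 1 (MYH2), a mean of at least 50 counts left 1 (MYH2), and no filter gave 5; leaving out a library gave 0 to 5, with 5 without TC shYEATS2 replicate 1 or 2. Leaving out a library gave 3 to 7 calls in YT shZZZ3 against YT shNT, with 3 (MYH15, MYH13 and MYH1) without YT shNT replicate 1 or 2, and 0 to 5 in YT shZZZ3 against TC shZZZ3. The causes were not tested. MYH15 and MYH4 in TC shYEATS2 ranged from -0.55 to 2.84 and from -0.30 to 2.01 on the log2 scale, and MYH3 in YT shZZZ3 against YT shNT from -0.11 to 1.58.

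The groups share replicate numbers, but over 13258 genes the deviations of same-numbered libraries had r from -0.438 to 0.898 in 15 pairs of groups, over 0.1 in 7. The 3 pairs among the TC groups were at 0.180 to 0.428 and the highest was TC shNT with YT shZZZ3. In every group replicate 1 had the higher total count and the lower share of mitochondrial counts. The gap in this share was smallest in TC shNT (5.28% against 5.40%) and largest in YT shYEATS2 (4.43% against 6.17%). Since 8 pairs were not over 0.1 and the labels tie no number to a shared source, the numbers were not used as a pairing. With the replicate block 0, 0, 6, 7, 4 and 2 members were called in TC shYEATS2, TC shZZZ3, YT shZZZ3 against YT shNT, YT shNT against TC shNT, YT shZZZ3 against TC shZZZ3 and the difference of changes; the call gained was MYH10 in YT shNT against TC shNT (-0.62, adjusted p = 0.0481 in edgeR).

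With 2 libraries a group and counts of 0 to 9 for most clustered genes in TC shNT, small differences within the TC line were not detectable at this depth.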
